A study of Mus musculus with 12 samples.

Results

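The genes described are those of the pore-forming alpha subunits of the voltage-gated calcium channels, chosen by gene symbol from the deposited list of poly(A) sites (PASs). All 8 of the chosen genes, *Cacna1a*, *Cacna1b*, *Cacna1c*, *Cacna1d*, *Cacna1e*, *Cacna1g*, *Cacna1h* and *Cacna1i*, were listed, out of 16627 genes in all. They held 33 of the 56204 entries of the list, where an entry is a PAS under the name of a gene. The list came from 3′READS+, a method that sequences only the 3′ ends of polyadenylated transcripts and so reads out where each mRNA is cleaved and polyadenylated. It covered 12 libraries from the hippocampus of male C57BL/6 wild-type mice given as 3 months old, from acute slices with the dentate gyrus trimmed away. In the LTP slices, chemical LTP was induced with 50 µM forskolin for 5 min and then for another 5 min with forskolin, 30 mM KCl and 10 mM calcium, whereas control slices received 0.2% DMSO. Slices were frozen 1 hr or 3 hr later, with 3 animals in each of the 4 groups. The paper left out control 3 hr sample 3 as an outlier by clustering. No entry of the list was removed here for that reason, so sites seen only in that library may be counted. Slices of the same animal went to LTP and to control. The RNA was that of whole mini-slices, with no cell type separated.

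Read numbers are not given for these genes. The 12 columns of read counts in the table carry names that match the labels of no sample, so no column was assigned to a library and none was used. Levels, replicate errors, depth per library and the comparisons of LTP with control slices are therefore not analysed here. The results below describe where the PASs of each gene lay and how they were labelled, without regard to how many reads supported them. A site with few reads counts as much as any other. Entries of a list are not replicates, and no test was run on them.

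A voltage-gated calcium channel opens when the membrane is depolarised and lets calcium into the cell. The alpha subunit forms the pore and holds the voltage sensors, and it determines the channel type. Cav1 channels carry the long-lasting L-type current, which in neurons is known for coupling electrical activity to gene expression in the nucleus. Cav2 channels carry the P/Q-, N- and R-type currents, of which the P/Q and N types trigger transmitter release at nerve endings. Cav3 channels carry the T-type current, which opens at low voltage and shapes burst firing. The alpha subunits of Cav1 and Cav2 channels work together with beta and alpha2delta subunits that govern their delivery to the membrane. An mRNA cleaved at a PAS in an intron lacks the exons downstream of it, whereas a choice between PASs in the last exon changes the length of the 3′UTR and leaves the protein as it is.

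The genes differed widely in how many PASs were listed. *Cacna1a* had 11 and *Cacna1e* had 10, *Cacna1i* had 4, *Cacna1g* had 3 and *Cacna1d* had 2, and a single PAS was listed for *Cacna1b*, *Cacna1c* and *Cacna1h*. The median was 2.5 PASs per gene, beside 2 over all genes of the list and 3 over the genes of at least 100 kb, a class that holds 6 of the 8. A single PAS was listed for 37.5% of the calcium channel genes, for 32.9% of all genes and for 19.3% of the genes of at least 100 kb. At the other end, 4.14% of all genes had at least as many PASs as *Cacna1a*, and 5.42% at least as many as *Cacna1e*. Both are in the class of at least 100 kb, where the median was higher, and the shares within that class were not computed. These 2 genes together held 21 of the 33 entries, and the other 6 genes held 12. None of the 33 PASs stood under the name of another gene as well.

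**Figure D1:**
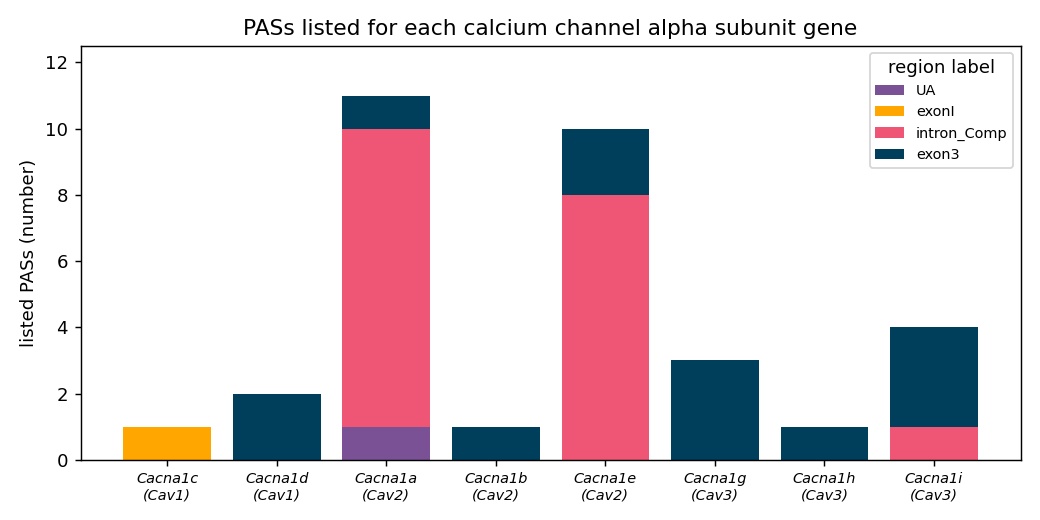
Number of PASs listed for each gene (vertical axis) by region label (colours), with genes in the order of the channel subfamilies on the horizontal axis. *Cacna1a*, with 11 PASs, and *Cacna1e*, with 10, stand above the other genes, which have 1 to 4, and most of their PASs carry the intronic label.

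Each PAS carries a label for the part of the gene it lies in. The meaning of the labels was taken from their names. The label exon3 stands for the last exon, intron_Comp and intron_Skip for introns, exonI for an internal exon, exon3ext for sequence beyond the last exon, and UA for upstream antisense. Of the 33 entries, 18 were intronic, 13 were labelled exon3, 1 was labelled exonI and 1 was labelled UA. Intronic entries thus made up 54.5% of the entries of these genes, beside 27.0% over all genes and 46.0% over the 2145 genes of at least 100 kb. The study's own cutoffs for reads and for relative use of a PAS were not applied to the list. The list is much larger than the set of PASs the paper reports, so the share over all genes includes sites outside that set. The shares of these genes and of the long genes may do so too. The paper also places a smaller share of its PASs in introns than the 27.0% found here, so these shares are not comparable with the paper's. All 18 carried the label intron_Comp and 0 the label intron_Skip, which was given to 11.7% of the intronic entries of all genes. The label exon3ext was present in 12.2% of all genes and in 0 of the 8 calcium channel genes, which are too few to tell this from the share over all genes.

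The Cav1 genes of the set, *Cacna1c* and *Cacna1d*, had 1 and 2 PASs and no intronic one. The median was 2 PASs over all genes and 3 over the genes of at least 100 kb, to which both belong. No intronic PAS was listed for 11055 of all 16627 genes and for 922 of the 2145 genes of at least 100 kb. *Cacna1c* (ENSMUSG00000051331.15) encodes Cav1.2, the main L-type channel of brain and heart. Its single PAS lay at position 118542327 on the minus strand of chromosome 6. All positions are in mm9, the build named in the submitters' processing notes. The label of this PAS was exonI, and no PAS of *Cacna1c* was labelled exon3. Genes without an exon3 PAS numbered 1552, or 9.33% of the list, and in 37 of all the listed genes every PAS carried the label exonI. In GRCm38, *Cacna1c* is the longest of the 8 genes, with a span of 609179 nt, and GENCODE vM21 lists 22 coding transcripts for it. Among these transcripts, the longest stretch of exon sequence after the stop codon is 6652 nt, for which the list held no PAS with a 3′UTR label.

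*Cacna1d* (ENSMUSG00000015968.17) encodes Cav1.3, the L-type channel that opens at more negative voltages. Its PASs lay at positions 30854545 and 30853127 on the minus strand of chromosome 14, both labelled exon3. They were 1418 nt apart, and 33.0% of the genes with at least 2 exon3 PASs had outermost sites at least as far apart. The longest annotated stretch after the stop codon of *Cacna1d* is 2132 nt. The other Cav1 genes, *Cacna1s*, known as the channel of skeletal muscle, and *Cacna1f*, known as the channel of the retina, were also in the list, with 1 and 2 PASs. A place in the list says only that the authors recorded a PAS under that gene.

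The Cav2 genes held 22 of the 33 entries and 17 of the 18 intronic PASs. *Cacna1a* (ENSMUSG00000034656.17) encodes Cav2.1, the P/Q-type channel. It lies on the plus strand of chromosome 8, where its only exon3 PAS was at position 87164150. Upstream of it, 9 intronic PASs were listed. In the order of transcription, the most upstream of them was at 87074737 and the following ones at 87087704 and 87104366. The next group lay at 87121158, 87124909, 87126326 and 87127260, and the last ones at 87137345 and 87139310. The intronic PASs thus ran from 89413 nt to 24840 nt upstream of the exon3 PAS, and none lay closer to it than that. Neighbouring intronic PASs were 934 to 16792 nt apart, with a median of 6918 nt. Among all genes, 1.52% had at least as many intronic PASs as *Cacna1a*. Among genes of at least 100 kb, the share was 7.18%.

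*Cacna1a* was the only one of the 8 genes with a PAS labelled UA, a label found in 13.8% of all genes. This PAS lay at position 86937509. Its site name carried the minus strand, opposite to that of the gene. It was 137228 nt upstream of the first intronic PAS and 226641 nt upstream of the exon3 PAS. For comparison, the GENCODE transcript of *Cacna1a* with the longest coding sequence spans 224883 nt in GRCm38, with 47 exons, and the whole annotated gene 251807 nt. The positions of the list cannot be set against these annotated starts directly, because the builds differ.

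*Cacna1e* (ENSMUSG00000004110.16) encodes Cav2.3, the R-type channel, and lies on the minus strand of chromosome 1. It had 8 intronic PASs and 2 exon3 PASs. The most upstream intronic PAS was at position 156425935 and the next at 156335756, which was 90179 nt downstream. A close pair at 156288159 and 156287987 followed, 172 nt apart. The remaining intronic PASs were at 156266265, 156265240, 156260906 and 156254599. They ran from 183166 nt to 11830 nt upstream of the first exon3 PAS, so that they spread over a longer stretch than those of *Cacna1a* and came closer to the last exon. At least as many intronic PASs were listed for 2.09% of all genes and for 9.0% of the genes of at least 100 kb. The exon3 PASs of *Cacna1e*, at 156242769 and 156240168, were 2601 nt apart. This was the longest distance between outermost exon3 PASs among the 8 genes, and 13.3% of the genes with at least 2 had one as long. *Cacna1e* also has the longest annotated stretch after a stop codon of the 8 genes, 7662 nt.

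*Cacna1b* (ENSMUSG00000004113.18) encodes Cav2.2, the N-type channel, which acts beside Cav2.1 at nerve endings. It had a single PAS, labelled exon3, at position 24461880 on the minus strand of chromosome 2, and no intronic PAS. *Cacna1b* and *Cacna1a* thus had 1 exon3 PAS each, whereas the 9 intronic PASs and the UA entry were listed for *Cacna1a* only. Both genes are long, spanning 159266 nt and 251807 nt in GRCm38, and the transcript with the longest coding sequence has 47 exons in both.

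**Figure D2:**
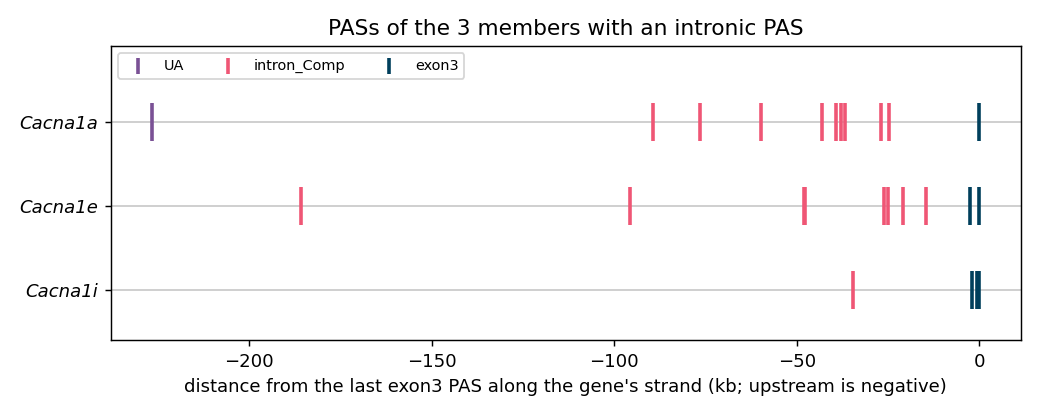
Position of each PAS of *Cacna1a*, *Cacna1e* and *Cacna1i* as its distance in kb from the last exon3 PAS of the gene along the gene's strand (horizontal axis, upstream negative), coloured by region label. In *Cacna1a* the 9 intronic PASs lie between the UA site and the exon3 site, and in *Cacna1e* the 8 intronic PASs reach farther upstream. The pair of *Cacna1e* 172 nt apart appears as a single mark.

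The Cav3 genes held 8 entries, 7 of them labelled exon3. *Cacna1g* (ENSMUSG00000020866.17) encodes Cav3.1. Its 3 PASs lay at positions 94270115, 94270084 and 94269710 on the minus strand of chromosome 11, all labelled exon3. The first pair was 31 nt apart, the shortest distance between neighbouring exon3 PASs among these genes, and the last PAS was 374 nt further downstream. The outermost sites were 405 nt apart, and 67.0% of the genes with at least 2 exon3 PASs had a distance at least as long. The longest annotated stretch after the stop codon is 754 nt in *Cacna1g*.

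*Cacna1i* (ENSMUSG00000022416.15) encodes Cav3.3 and lies on the plus strand of chromosome 15. Its exon3 PASs were at positions 80226713, 80228017 and 80228711, with 1304 nt between the first and the second and 694 nt between the second and the last. The outermost sites were 1998 nt apart, and 21.0% of the genes with at least 2 exon3 PASs had a distance at least as long. *Cacna1i* was the only Cav3 gene with an intronic PAS, at 80194040, which lay 32673 nt upstream of the first exon3 PAS. At least 1 intronic PAS was listed for 33.5% of all genes and for 57.0% of genes of at least 100 kb. *Cacna1h* (ENSMUSG00000024112.16) encodes Cav3.2. It had a single PAS, labelled exon3, at position 25511232 on the minus strand of chromosome 17, and it is also the shortest of the 8 genes in GRCm38, with 59499 nt.

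**Figure D3:**
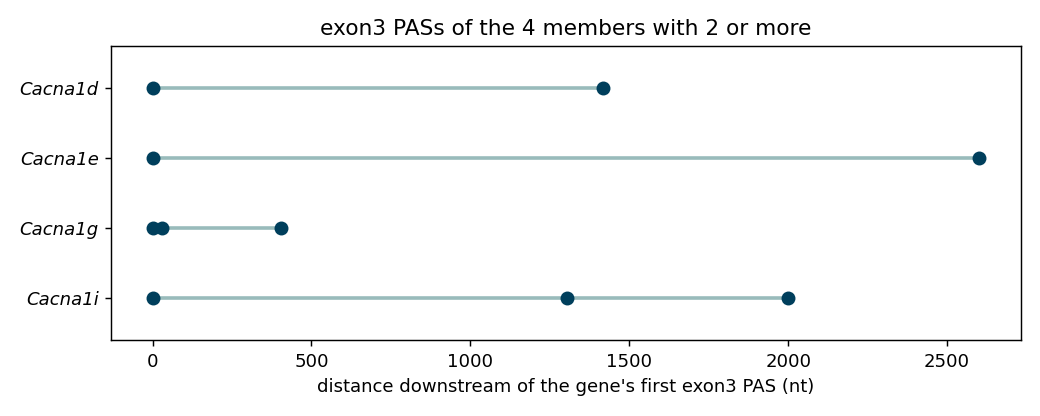
Exon3 PASs of the 4 genes with at least 2 of them, as the distance in nt downstream of the first exon3 PAS of the gene (horizontal axis). Points are PASs and lines join the outermost ones. The distance runs from 405 nt in *Cacna1g* to 2601 nt in *Cacna1e*.

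An exon3 PAS was listed for 7 of the 8 genes, and 4 of these 7 genes had at least 2, the minimum for alternative 3′UTRs. This was 57.1%, beside 49.5% of all genes with an exon3 PAS and 61.2% of such genes of at least 100 kb. The median distance between the outermost exon3 PASs of the 4 genes was 1708 nt, beside 817 nt over 7465 genes of the list and 1143 nt over 1189 of those of at least 100 kb. With so few calcium channel genes, each of these shares moves by a large step with a single gene. An intronic PAS was listed for 3 of the 8 genes, or 37.5%, beside 33.5% of all genes and 57.0% of the genes of at least 100 kb. *Cacna1a* and *Cacna1e* alone held 17 of the 18 intronic PASs, or 94.4%. Of the 6 genes of at least 100 kb, *Cacna1a*, *Cacna1e* and *Cacna1i* had one, whereas *Cacna1b*, *Cacna1c* and *Cacna1d* had none, and *Cacna1g* and *Cacna1h*, which are shorter, had none either. The part of gene length in this was not tested.

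The genes grouped by name as auxiliary subunits of the calcium channels were compared with those of the alpha subunits. Gamma genes are among them, and not every gamma gene need encode a part of these channels, as *Cacng2* below shows. All 16 auxiliary genes were listed, with 78 entries and a median of 3 PASs per gene. An intronic PAS was listed for 12 of the 16, beside 33.5% of all genes and 57.0% of the genes of at least 100 kb. Intronic PASs made up 41.0% of the entries of the auxiliary genes. All 4 alpha2delta genes and all 4 beta genes had an intronic PAS, against 4 of the 8 gamma genes. The auxiliary genes with the most PASs were *Cacnb4*, a beta subunit, with 13, of which 9 were labelled exon3, and *Cacna2d4*, with 11, of which 7 were intronic. *Cacnb4* also had the longest distance between outermost exon3 PASs, 4780 nt, which is longer than that of *Cacna1e*. Gamma genes held 8 PASs labelled UA. Of these, 4 were in *Cacng2*, which encodes the AMPA receptor auxiliary protein stargazin, 3 in *Cacng4* and 1 in *Cacng8*. As with *Cacna1c*, no exon3 PAS was listed for 3 auxiliary genes, *Cacnb1*, *Cacng6* and *Cacng8*.

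The voltage-gated sodium channels are the family nearest to the calcium channels in build, with a pore-forming alpha subunit of the same repeated layout. Of 9 alpha subunit genes, 8 were listed, and *Scn10a*, known from sensory neurons, was not. They held 47 entries, with a median of 5.5 PASs per gene and a range from 1 in *Scn8a* to 13 in *Scn1a*. An intronic PAS was listed for 7 of the 8 sodium channel genes and for 3 of the 8 calcium channel alpha subunit genes. The share was 33.5% over all genes and 57.0% over the genes of at least 100 kb. Gene lengths were not compared between the families. The median number of intronic PASs per gene was 2 in the sodium channel genes and 0 in the calcium channel genes, while the highest was 8 in *Scn1a* and 9 in *Cacna1a*. As a share of entries, intronic PASs were close in both families, with 51.1% in the sodium channel genes and 54.5% in the calcium channel genes. The single PAS of *Scn8a*, which encodes the sodium channel of the axon initial segment, was labelled exonI, as was that of *Cacna1c*.

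**Figure D4:**
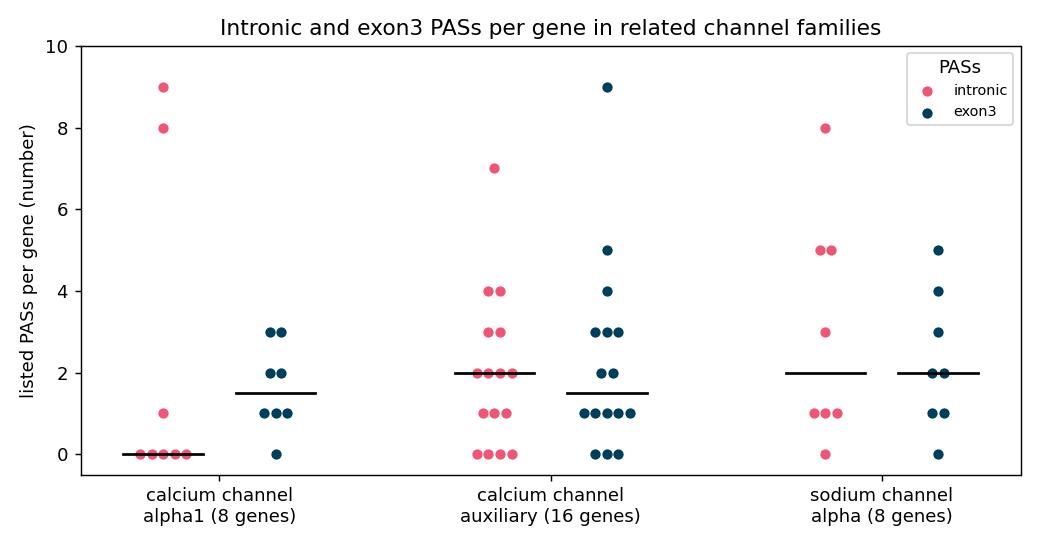
Intronic and exon3 PASs listed per gene (vertical axis) for the 8 calcium channel alpha subunit genes, the 16 auxiliary subunit genes and the 8 listed sodium channel alpha subunit genes. Each point is a gene and each bar a median. The median of intronic PASs is 0 in the calcium channel alpha subunits, where *Cacna1a* and *Cacna1e* stand at 9 and 8, and 2 in both other families.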

How the data were processed

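Per the labels and the methods of the study, the authors mapped 3′READS+ reads with Bowtie2 to mm9, identified PASs from reads that begin with Ts absent from the genome, and clustered nearby PASs. Their deposited table lists, for all libraries together, the gene symbol, chromosome, strand, position (in nt) and region label of each PAS. Its 12 columns of read counts were not used: their names match no sample's labels, and none was assigned by its order or its total. No LTP comparison was made.

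Entries were counted by gene and label, and distances were taken along the gene's strand, with Python 3.11.15, pandas 2.3.3, numpy 2.4.6 and matplotlib 3.10.9. The counting was tested on simulated lists. Gene lengths for the class of at least 100 kb came from RefSeq (GRCm38), matched by symbol for 89.5% of genes. Gene identifiers, transcripts and spans came from GENCODE vM21 (GRCm38). Of the 33 positions, 0 lay within 5000 nt of their gene in GRCm38, so no positions were compared between builds and no sequence around the PASs was read. Protein features had been planned and were not analysed here. The genes and the comparison families were chosen with earlier results of these data known. All 8 genes are described, and auxiliary and sodium channel genes are named where they were extreme, without an exon3 PAS, not listed, or had a label shared with a member.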

Additional observations from a re-analysis of the deposited data

How the results depend on the processing

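No paired analysis was possible because no column of read counts was assigned to a sample, and no result comes from a test. Of 30 values recomputed under the alternatives, 28 stayed within 1.5 times for counts or were equal for distances. Many of these could not have changed, as given below, so the number that stayed is not a measure of robustness. The number of PASs of the 8 genes was 33, and 32 without entries labelled UA. It was also 32 when PASs of a gene with the same label within 100 nt were merged, which joined the close pair of *Cacna1g*. The counts of genes with at least 2 exon3 PASs (4), of intronic PASs (18) and of genes with an intronic PAS (3) were equal under these alternatives. Leaving out UA entries could not have changed them. They were also equal with exon3ext entries counted as exon3 and without PASs listed under more than 1 gene. Neither of these could change a count or a distance, since the 8 genes had 0 exon3ext entries and 0 PASs under another gene. Measured to the last exon3 PAS in place of the first, the most upstream intronic PAS lay 185767 nt upstream in *Cacna1e* and 34671 nt in *Cacna1i*, since both have several exon3 PASs. The study's cutoffs for reads and relative use were not applied, because the columns of read counts were left unused. A cutoff on reads pooled over all libraries was not tried either, so the counts of intronic PASs may include sites with few reads. Whether some limit preceded deposit was not examined, so a missing PAS does not show that the site was unused.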
